A study of Mus musculus with 35 samples.

Results

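The inner root sheath keratins are 8 genes chosen by symbol from the 36106 rows of the gene count table. Krt25, Krt26, Krt27 and Krt28 encode type I keratins, and Krt71, Krt72, Krt73 and Krt74 encode type II keratins or, for Krt74, the mouse counterpart of one. All 8 were found, and each was read in all 35 libraries. Bulk RNA was sequenced from skin biopsies. The 19 mice were females of the inbred strain C57BL/6J, 10 weeks old when they were divided into groups. Per the labels, skin of the left flank had received 25 Gy at 3.6 Gy per min over 420 seconds, and an electric razor was used on it after the exposure. The libraries labelled radiated (n = 4 in each of weeks 1, 2, 3 and 4 after radiation) came from that site. The libraries labelled control (n = 4 in each week) came from radiated mice too, as counted below, and the labels do not say from where on the body or whether that skin was shaved. Sham mice (n = 3) had no radiation, and the labels give neither a sampling week nor shaving for them. The series text counts 19 mice for 35 libraries, so a radiated and a control library that share week and number are read here as 1 mouse. Libraries of different weeks came from different mice.

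Keratins are the filament proteins of epithelial cells, and every filament needs a type I and a type II partner. The inner root sheath is the layered tube that moulds and guides the growing hair shaft, and its Henle layer, Huxley layer and cuticle harden and then break down below the opening of the sebaceous gland. As known from human hair, K25, K27, K28 and K71 occur in all layers of the sheath, K26, K72 and K73 mark its cuticle, and K74 marks the Huxley layer. A follicle has an inner root sheath while it grows a hair (anagen) and lacks one at rest (telogen), and shaving does not remove it because it lies below the skin surface. Mutations of Krt25 and of Krt71 are known to give mice a wavy coat.

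The type I genes lie side by side on the minus strand of chromosome 11 (GENCODE M21, GRCm38): Krt25 at chr11:99315516-99322951, Krt26 at chr11:99328550-99337966, Krt27 at chr11:99345565-99351104 and Krt28 at chr11:99364872-99374903, each with 8 exons. The type II genes lie on the minus strand of chromosome 15, each with 9 exons: Krt71 at chr15:101733949-101743109, Krt74 at chr15:101754259-101763504, Krt72 at chr15:101776172-101786460 and Krt73 at chr15:101793308-101802346. Krt74 is annotated there as a transcribed unitary pseudogene and the other 7 as protein coding. No other gene overlapped any of them. The RefSeq promoter table for GRCm38.p6 held 7 of the 8, all but Krt74. The 250 bases before the RefSeq start site of 4 of them are shown because they hold the letters AGATAA, a word read by GATA factors, of which GATA3 is needed to form the inner root sheath. These promoters and the words were chosen after the sequences had been seen. They cover chr11:99322952-99323201 (Krt25), chr11:99351119-99351368 (Krt27), chr15:101743098-101743347 (Krt71) and chr15:101802361-101802610 (Krt73), and are written 5′ to 3′ on the strand of the gene, with AGATAA and the TATA box word TATAAA in capitals.
Krt25: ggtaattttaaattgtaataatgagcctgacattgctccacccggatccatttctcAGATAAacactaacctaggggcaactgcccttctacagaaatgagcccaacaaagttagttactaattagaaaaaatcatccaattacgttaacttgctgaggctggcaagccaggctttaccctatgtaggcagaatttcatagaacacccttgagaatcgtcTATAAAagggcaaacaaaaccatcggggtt
Krt27: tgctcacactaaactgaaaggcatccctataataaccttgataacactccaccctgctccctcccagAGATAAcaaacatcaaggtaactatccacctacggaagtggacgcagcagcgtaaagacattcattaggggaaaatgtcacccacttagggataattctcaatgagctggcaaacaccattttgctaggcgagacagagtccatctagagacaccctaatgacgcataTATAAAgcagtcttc
Krt71: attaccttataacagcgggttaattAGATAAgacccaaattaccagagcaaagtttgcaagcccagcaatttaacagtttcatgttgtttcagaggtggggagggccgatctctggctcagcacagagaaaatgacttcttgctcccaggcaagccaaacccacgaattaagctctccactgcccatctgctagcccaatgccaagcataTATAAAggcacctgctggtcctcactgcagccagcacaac
Krt73: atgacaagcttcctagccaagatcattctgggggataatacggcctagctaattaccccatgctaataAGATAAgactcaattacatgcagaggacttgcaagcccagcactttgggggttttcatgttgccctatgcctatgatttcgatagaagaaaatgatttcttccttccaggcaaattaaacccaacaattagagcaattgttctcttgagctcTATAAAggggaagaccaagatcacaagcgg
In these lines AGATAA starts 194 bases before the start site in Krt25, 183 in Krt27, 225 in Krt71 and 182 in Krt73. AGATAA, searched on both strands in 300 bases (250 before and 50 after the start site), was found in 4 of the 7 promoters and in 11.2% of 32851 promoters. TATAAA was found in 7 of 7 and in 13.6% of all promoters. Read on the gene strand and starting from 45 to 10 bases before the start site, TATAAA was in 6 of 7 and in 2.35% of all. In Krt72 the word was only on the other strand, 203 bases before the start site. Krt27 has it 15 bases before the RefSeq start site, and the GENCODE start lies 14 bases further downstream. TAATTA, a homeobox word that shares 1 base with AGATAA in Krt71, was in 4 of 7 (Krt25, Krt28, Krt71 and Krt73) and in 5.29% of all. CTTTGNA, a word of LEF and TCF factors, was in 2 of 7 (Krt28 and Krt72) and in 18.1% of all. The longest run shared by any 2 of the 7 was ttgcaagcccagca, 14 bases, in Krt71 and Krt73. A match is a description of letters and not a bound site.

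The deposited values are estimated counts, which split reads that fit several transcripts. Of the 31-base words in the longest annotated transcript of each gene, Krt25 shared 308 of 1959 with other genes, 254 of them with Krt27, and Krt71 shared 111 of 2156, 65 of them with Krt74. Krt26 shared 0 of 2441. Its estimates were nevertheless not whole in 100% of the libraries, and it was the only member above 3 counts in every library, with a lowest level of 0.328 CPM. CPM, the usual depth-normalised unit, divides each count by the scaled total of its library. The levels of Krt25 and Krt27, and of Krt74 beside Krt71, are less certain for this sharing. Low levels of Krt26 are less certain too, because its estimates were whole in no library, for a reason that was not tested. This holds wherever Krt26 is compared with sham skin below.

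Library totals ran from 17362725 to 28487795 counts. A count of 3 was taken as a floor: levels at or under it are printed but not told apart from 0, and fitted fold changes that rest on them depend on the prior count. It corresponded to 0.114 to 0.175 CPM. Krt73 had 0 counts in 12 of 35 libraries, Krt72 in 10, Krt74 in 8, Krt71 in 4, Krt28 in 3, Krt25 in 1 and Krt26 and Krt27 in none. The labels name no batch or date. Nothing in them says whether the sham libraries were made together with the others.

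In sham skin the 8 keratins were abundant, and Krt71 was the highest. Their summed level was 807 CPM in replicate 1, 9950 in replicate 2 and 10500 in replicate 3, or 0.0838%, 0.994% and 1.17% of all counts. Krt71, the type II keratin of all sheath layers, was at 500, 4970 and 5150 CPM in these libraries. Replicate 1 was the lowest of the 3 for Krt71, and the gap was wider for Krt72 and Krt26. Krt72 was at 16.8, 1120 and 734 CPM and Krt26, the type I cuticle keratin, at 9.76, 676 and 548. Per kb of transcript, which allows genes to be set side by side, the sham means were 1620 ± 1200 CPM per kb for Krt71 (SD, n = 3) and 630 ± 510 for Krt25. They were 435 ± 340 for Krt27, 320 ± 287 for Krt72, 166 ± 143 for Krt26, and 147 for both Krt28 (SD 123) and Krt73 (SD 114). Krt74 was at 4.68 ± 3.84 CPM per kb. With an SD near the mean in every case, neighbours in this order overlapped between libraries, and only Krt71 and Krt74 stood apart at the ends in each single sham library.

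**Figure D1:**
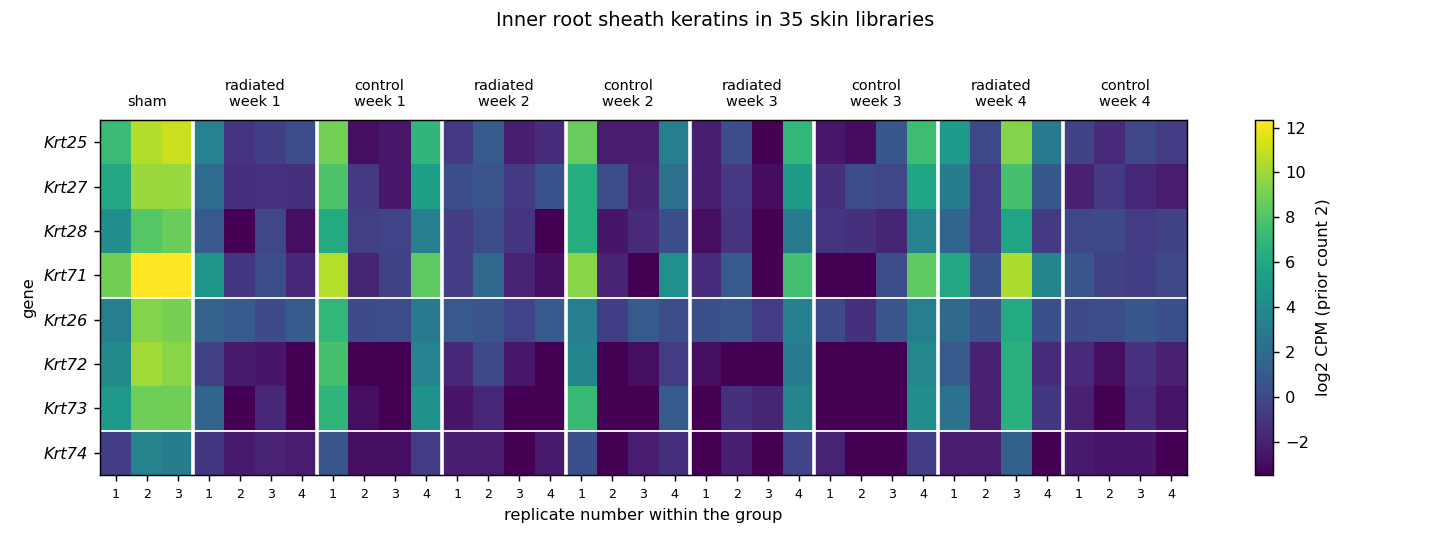
Level of each keratin (rows) in each of the 35 libraries (columns, by group and replicate number), as log2 CPM with a prior count of 2; yellow is high and dark blue is low. Most rows are brightest in the same columns, with Krt74 dim in many of them: the 3 sham libraries, control replicates 1 and 4 of week 1, control replicate 1 of week 2, replicate 4 of both kinds in week 3 and radiated replicate 3 of week 4.

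Among the control libraries the sheath keratins were high in some mice and near the floor in others of the same week. Krt71 was at 1490, 0.190, 0.668 and 337 CPM in control replicates 1 to 4 of week 1, and at 742, 0.172, 0 and 22.3 CPM in week 2. It was at 0, 0, 1.12 and 346 CPM in week 3 and at 1.64, 0.663, 0.598 and 0.884 CPM in week 4. In weeks 1 to 3 the highest control library was thus over 100 CPM and the lowest under 1, while in week 4 all 4 lay between 0.598 and 1.64 CPM and none was high. Radiated skin had Krt71 at 29.8, 0.432, 1.17 and 0.218 CPM in week 1, and at 0.575, 3.68, 0.181 and 0.0545 CPM in week 2. It had 0.274, 1.96, 0 and 196 CPM in week 3 and 67.8, 1.47, 1330 and 13.0 CPM in week 4. Radiated skin was over 10 CPM in 1 of 4 mice in week 1, in none in week 2, in 1 in week 3 and in 3 in week 4. In mouse 4 of week 3 both kinds of skin were high, at 196 CPM radiated and 346 CPM control.

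Krt25 was the type I keratin with the highest mean level in sham skin. In control skin it was at 531, 0.0475, 0.0954 and 124 CPM in week 1, at 409, 0.129, 0.131 and 10.2 in week 2, at 0.090, 0.041, 1.67 and 176 in week 3 and at 0.688, 0.265, 0.854 and 0.538 in week 4. In radiated skin it was at 11.5, 0.378, 0.609 and 1.09 CPM in week 1, at 0.487, 1.93, 0.135 and 0.272 in week 2, at 0.137, 1.12, 0 and 125 in week 3 and at 32.8, 0.931, 669 and 7.90 in week 4. Every radiated library of week 4 was above every control library of that week. Krt27, another type I keratin of the whole sheath, ran from 0.115 to 0.487 CPM in control skin of week 4 and stood at 9.31, 0.543, 213 and 1.78 CPM in radiated skin, again without overlap. Krt28, the fourth keratin of all sheath layers, was at 0.847, 0.929, 0.555 and 0.692 CPM in control skin of week 4 and at 3.12, 0.543, 53.8 and 0.491 CPM in radiated skin. Its radiated replicates 2 and 4 lay below every control library.

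Of the cuticle keratins, Krt72 and Krt73 were at 0 in more libraries than any other member, and Krt26 in none. Krt72 was at 214, 0, 0 and 11.5 CPM in control skin of week 1, at 12.8, 0, 0.0437 and 0.521 in week 2, at 0, 0, 0 and 14.6 in week 3 and at 0.265, 0.0442, 0.342 and 0.154 in week 4. In radiated skin of week 4 it was at 2.01, 0.155, 93.6 and 0.268 CPM. Krt73 was at 117, 0.0475, 0 and 24.3 CPM in control skin of week 1 and at 143, 0, 0 and 1.98 CPM in week 2. It read 0, 0, 0 and 20.0 CPM in control skin of week 3, and 5.55, 0.155, 96.0 and 0.446 CPM in radiated skin of week 4. These counts are thus carried by the libraries in which Krt71 was high. Krt26 was at 128, 1.05, 1.15 and 8.37 CPM in control skin of week 1 and did not fall under 0.328 CPM in any library. Krt74, the Huxley layer keratin in human hair and a pseudogene in this annotation, reached 12.3 CPM in sham replicate 2 and was at or under 3 counts in 22 of 35 libraries. For Krt74 every library was at or under that floor in radiated skin of week 2, as in control skin of week 4.

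Ordered by mean Krt71 level, sham skin (3540 ± 2630 CPM, SD, n = 3) was followed by control skin of week 1 (458 ± 708, n = 4), radiated skin of week 4 (354 ± 654) and control skin of week 2 (191 ± 367). Below these came control skin of week 3 (86.8 ± 173), radiated skin of week 3 (49.6 ± 97.7), week 1 (7.92 ± 14.6) and week 2 (1.12 ± 1.72), and control skin of week 4 (0.947 ± 0.479). Each group overlapped in its libraries with the next in this order. Several of these means rest on 1 high library, and the lower part of the order differs by medians. Radiated skin of weeks 3 (median 1.12 CPM) and 1 (0.803) was then followed by control skin of weeks 4 (0.774) and 3 (0.558). Radiated skin of week 2 (0.378) was lowest. An F test of edgeR (quasi-likelihood, Benjamini-Hochberg adjustment over all genes tested) for any difference among the 9 groups called 8 of 8 members at an adjusted p under 0.05, with adjusted p from 3.76e-06 for Krt26 to 0.00531 for Krt71. Of all genes, 58.8% were called by that test. In bulk tissue, fewer sheath cells and less keratin RNA per cell cannot be told apart, here and in all results that follow.

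Within each week, radiated skin was set against control skin. Body site and shaving of control skin are not given, so radiation, site and shaving cannot be told apart here. For this comparison, rose, fell and changed mean a level in radiated skin relative to control skin of that week. In week 1 the tested members were lower on average in radiated skin, with no call. Krt71 was at 7.92 ± 14.6 CPM in radiated and 458 ± 708 in control skin (SD; n = 4 and 4). The log2 fold change was -5.84 ± 2.23 (SE) and the edgeR adjusted p 0.291. Only 5 of 8 members passed the filter on low counts (Krt25, Krt26, Krt27, Krt28 and Krt71), so counts over them are not counts over all members. Krt26 reached the filter's minimum in all 4 libraries of both groups, Krt28 in all 4 control libraries, and Krt25, Krt27 and Krt71 in at most 3 of either group. None of the 5 was called, and 0% of all genes were called. An unadjusted p under 0.05 was reached by 5 of the 5 and by 2477 of 17578 genes. The Wald test of DESeq2 gave 6 members an adjusted p and called none. Within mice, Krt71 was lower in radiated skin in mice 1 (29.8 against 1490 CPM) and 4 (0.218 against 337 CPM), and a little higher in mice 2 and 3, where both kinds of skin were at or under 1.17 CPM. Without control replicate 1 the log2 fold change of Krt71 was -3.81 and that of Krt26 went from -4.14 to -0.84, and without radiated replicate 1 that of Krt71 was -9.53.

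In week 2 the pattern was of the same kind, and again not called. Krt25 was at 0.706 ± 0.828 CPM in radiated and 105 ± 203 in control skin (SD; n = 4 and 4). The log2 fold change was -7.27 ± 2.28 (SE) and the edgeR adjusted p 0.209. Of the 5 members tested (Krt25, Krt26, Krt27, Krt28 and Krt71), none was called, and 0.00577% of all genes were called. An unadjusted p under 0.05 was reached by 4 of the 5 and by 2388 of 17345 genes. DESeq2 gave 1 member an adjusted p and did not call it. Control replicate 1 carried much of the difference: Krt71 was at 742 CPM there and at 0.575 CPM in radiated skin of that mouse. Without that library the log2 fold change of Krt71 went from -7.47 to -2.79, and those of Krt26 and Krt28 turned from -1.22 to 0.27 and from -5.25 to 0.07.

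In week 3 no difference was detected, and each kind of skin had 1 high library. Krt71 was at 49.6 ± 97.7 CPM in radiated and 86.8 ± 173 in control skin (SD; n = 4 and 4). The log2 fold change was -0.79 ± 2.41 (SE) and the edgeR adjusted p 0.831. Only Krt25, Krt26, Krt27 and Krt71 passed the filter, and none of the 4 was called, against 27.2% of all genes called. None of the 4 had an unadjusted p under 0.05, which 7169 of 17653 genes had. DESeq2 gave 1 member an adjusted p and did not call it. The high library of each kind came from mouse 4, and leaving out 1 of the pair turned the sign. The log2 fold change of Krt71 was 7.09 without control replicate 4 and -6.88 without radiated replicate 4, and 0.04 with the mouse as a block. Within mice, Krt27 was lower in radiated skin in 4 of 4 pairs (blocked log2 fold change -1.27, edgeR adjusted p = 0.108). Its radiated counts were 3 in mouse 1 and 1 in mouse 3, at or under the floor. Krt26 and Krt71 were lower in 2 of 4 pairs.

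**Figure D2:**
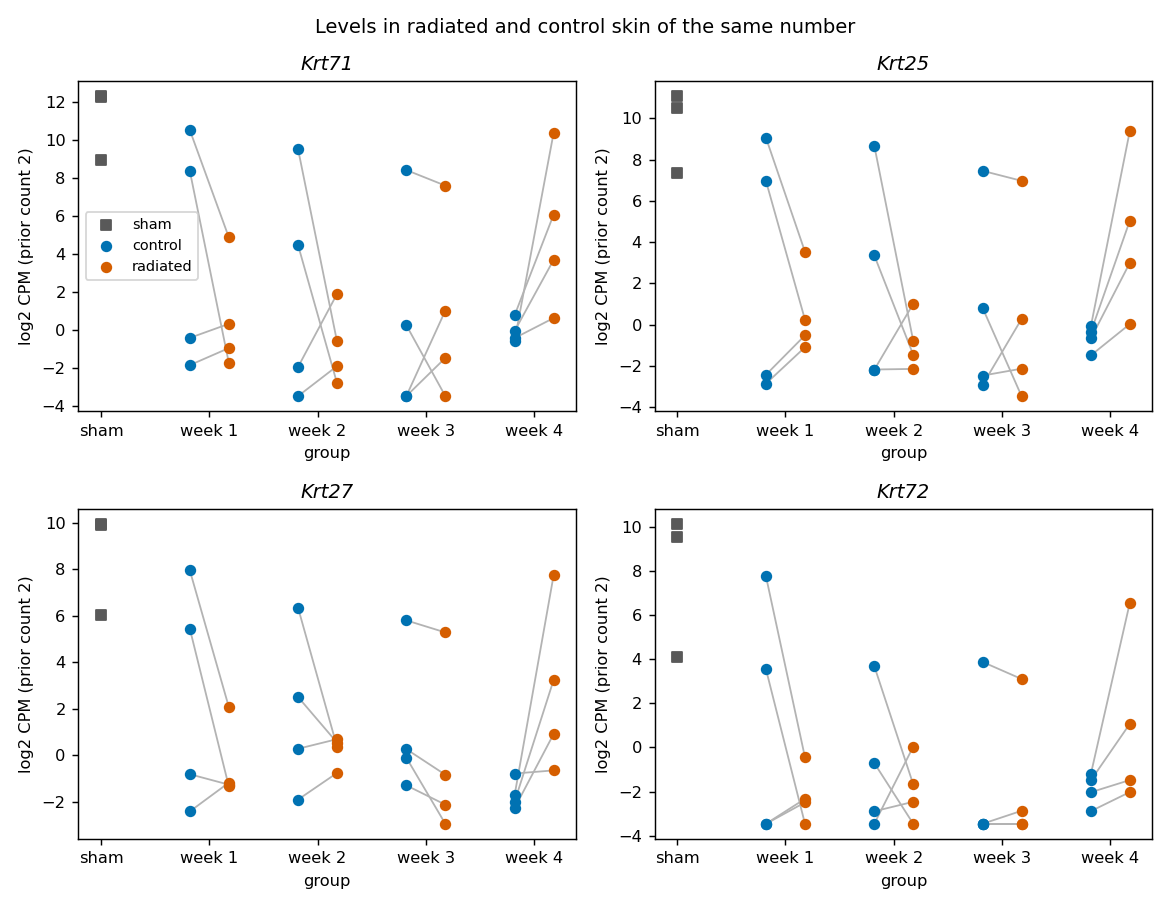
Level (log2 CPM, prior count 2) of Krt71, Krt25, Krt27 and Krt72 in sham skin (grey squares) and in control (blue) and radiated (orange) skin, with a line for each week and number taken as 1 mouse. Lines fall steeply in mice with high control skin in weeks 1 and 2, and all 4 lines of Krt71 and Krt25 rise in week 4, where radiated Krt71 ran from 1.47 to 1330 CPM.

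In week 4 the sheath keratins that could be tested were higher in radiated skin. Krt71 rose from 0.947 ± 0.479 to 354 ± 654 CPM (SD, n = 4 each; log2 fold change 8.58 ± 2.06 SE, edgeR adjusted p = 0.00675), Krt25 from 0.586 ± 0.250 to 178 ± 328 CPM (8.24 ± 2.02, adjusted p = 0.00757) and Krt27 from 0.244 ± 0.167 to 56.1 ± 104 CPM (7.83 ± 2.05, adjusted p = 0.0105). Krt28 (log2 fold change 4.26, adjusted p = 0.0338) and Krt26 (3.95, adjusted p = 0.0308) were called too. That made 5 of the 5 members tested, in a comparison where 24.2% of all genes were called higher. Of the 4 libraries the filter needs, Krt27 reached its minimum in 1 control library and Krt25 in 3, so both passed with the help of radiated skin, where they were high, and this count is a description of the members that passed and no support for a difference over all 8. Within mice, radiated skin was above control skin in 4 of 4 pairs for Krt25, Krt26, Krt27, Krt71, Krt72 and Krt73 and in 2 of 4 for Krt28. Some of these pairs were near ties or near the floor. Krt26 in mouse 4 was at 1.25 against 1.23 CPM. In mouse 2, Krt27 had 14 against 11 counts, Krt72 had 4 against 1 and Krt73 had 4 against 0. For Krt74 only 1 pair was above the floor, with radiated skin higher. The share of all genes higher in 4 of 4 pairs was not computed, so these pair counts are a description. The 2 groups did not overlap for Krt25 and Krt27, as for 22.9% of all genes tested. Krt72, Krt73 and Krt74 did not pass the filter on low counts and were not tested.

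These calls depended on the treatment of the mice and on 1 library. With the mouse as a block, 3 of the 5 held: Krt25 (log2 fold change 6.61, adjusted p = 0.00568), Krt27 (6.40, 0.0176) and Krt71 (5.90, 0.0228), while Krt26 had a blocked adjusted p of 0.149 and Krt28 of 0.268. Without radiated replicate 3, the library with 1330 CPM of Krt71, the same 3 genes were called at lower log2 fold changes of 4.90 for Krt71, 4.58 for Krt25 and 3.99 for Krt27. Krt26 and Krt28 then had log2 fold changes of 0.76 and 0.89, and they also lost their call without any 1 of control replicates 1 to 4, with adjusted p from 0.0592 to 0.0815. Of all genes, 7548 to 8582 were called when 1 library was left out, against 8643 with all libraries. DESeq2 gave none of the 8 members an adjusted p in this comparison.

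**Figure D3:**
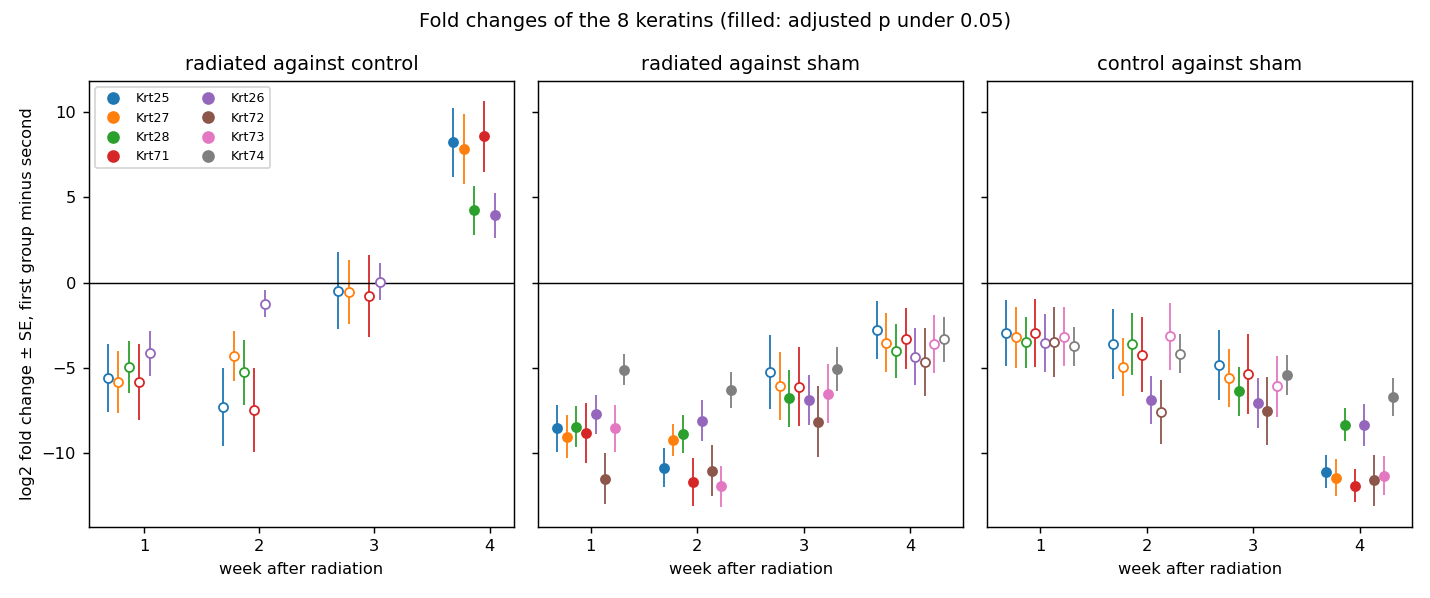
Log2 fold change (first group minus second, ± SE) of each tested keratin by week, in 3 panels: radiated against control, radiated against sham and control against sham; filled points have an adjusted p under 0.05. In the left panel the points are below 0 in weeks 1 and 2 and at 3.95 to 8.58 in week 4, and in the other panels all points are below 0.

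The radiated-minus-control difference was then tested for a change over the weeks. Over the 32 libraries other than sham, edgeR's joint test of 3 week-by-radiation terms called 7 of 8 members, with adjusted p from 0.0240 for Krt27 to 0.0448 for Krt28. Krt74, with an adjusted p of 0.204, was not called. Of all genes, 15.6% were called. With the mouse as a block 4 members were called: Krt25 (adjusted p = 0.0415), Krt27 (0.0237), Krt72 (0.0289) and Krt73 (0.00414). Krt71 then had an adjusted p of 0.104. Leaving out all libraries of any 1 replicate number, which left 3 mice a week, called none of the 8. Those fits called 960 to 1782 of all genes, against 3013 of 19338 with all mice.

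Sham skin served as the reference without radiation, and the same 3 sham libraries enter all of the comparisons given next. The labels do not state when it was taken. In radiated skin of week 1 the sheath keratins were lower than in sham skin. Krt71 was at 7.92 ± 14.6 CPM (SD, n = 4) against 3540 ± 2630 (n = 3; log2 fold change -8.81 ± 1.75 SE, edgeR adjusted p = 0.0383). Of the 8 members, 8 were called lower, against 1.21% of all genes, and for 8 of 8 the libraries did not overlap, as for 7.89% of all genes. Only Krt25, Krt26 and Krt71 reached the filter's minimum in the 3 libraries it needs within radiated skin. The other 5 passed with the sham libraries, in which they were high and so had to differ, and the counts over 8 are therefore a description and not support. The number called fell to 0 without radiated replicate 3, to 1 without radiated replicate 4 and to 2 without sham replicate 3. Of all genes, 319 were called with all libraries and 1 without radiated replicate 3. Leaving out 1 library at a time gave 1 to 543.

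Radiated skin of week 2 had the lowest levels among the radiated groups for Krt71 and Krt25, by their means. Krt71 was at 1.12 ± 1.72 CPM (SD, n = 4) against 3540 ± 2630 in sham skin (n = 3; log2 fold change -11.68 ± 1.40 SE, edgeR adjusted p = 0.00706). Krt27 was at 1.14 ± 0.451 against 675 ± 527 CPM (-9.22 ± 0.955, adjusted p = 0.00483). All 8 members were called lower, against 2.9% of all genes, and none overlapped with sham skin, as for 11.5% of all genes. Within radiated skin only Krt26 and Krt27 reached the filter's minimum in enough libraries, and the other 6 passed through sham skin, so these counts too are a description. Krt73 had 2, 4, 0 and 0 counts there. Leaving out 1 library at a time left 6 to 8 members called, and 107 to 1398 of all genes, against 912 with all libraries.

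In radiated skin of week 3, 5 of 8 members were called lower than in sham skin (Krt26, Krt28, Krt72, Krt73 and Krt74), against 7.75% of all genes. Krt26 was at 3.36 ± 4.50 CPM (SD, n = 4) against 411 ± 354 (n = 3; log2 fold change -6.89 ± 1.47 SE, edgeR adjusted p = 0.0170), and it was the only member of the 5 that did not pass the filter through sham skin alone. Krt25, Krt27 and Krt71, the 3 most abundant members, had log2 fold changes of -5.25 to -6.10 and adjusted p of 0.130, 0.0679 and 0.101. The libraries did not overlap for 6 members, as for 18.1% of all genes. All 6 (Krt25, Krt27, Krt28, Krt71, Krt72 and Krt73) passed the filter through sham skin, so both counts are a description. Without radiated replicate 4, the high library, 8 members were called. Without sham replicate 2 it was 0, without sham replicate 3, radiated replicate 2 or radiated replicate 3 it was 1, and without radiated replicate 1 it was 2. Of all genes, 3308 were called with all libraries, 3965 without radiated replicate 4 and 1134 without sham replicate 2.

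By week 4 radiated skin overlapped with sham skin for every member. Krt71 was at 354 ± 654 CPM (SD, n = 4) against 3540 ± 2630 (n = 3; log2 fold change -3.27 ± 1.78 SE, edgeR adjusted p = 0.212). No member was called by edgeR, against 11.5% of all genes called lower. An unadjusted p under 0.05 was reached by 4 of 8 members and by 7183 of 18346 genes. DESeq2 called 1 (Krt26) of the 5 members it gave an adjusted p. Without radiated replicate 3, 8 members were called lower, and without sham replicate 1 it was 2. Of all genes, 3467 to 4590 were called when 1 library was left out, against 4899 with all libraries.

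Control skin was set against sham skin in the same way. In week 1 Krt71 was at 458 ± 708 CPM (SD, n = 4) against 3540 ± 2630 (n = 3; log2 fold change -2.95 ± 1.99 SE, edgeR adjusted p = 0.364). There edgeR called 0 of 8 members, against 1.65% of all genes called lower, and DESeq2 called 0 of 5. An unadjusted edgeR p under 0.05 was reached by 2 of 8 members and by 4880 of 17893 genes, a similar share. The number of members called by edgeR was 3 without control replicate 1 and 1 without sham replicate 1. Of all genes, 0 to 1803 were called when 1 library was left out, against 881 with all libraries. In week 2 only Krt26 was called lower (3.50 ± 4.57 against 411 ± 354 CPM, log2 fold change -6.88 ± 1.42 SE, adjusted p = 0.0475), against 1.06% of all genes. Krt72 was the only member without overlap, which 8.7% of all genes were. Without control replicate 1 of week 2, the library with 742 CPM of Krt71, 8 members were called, without sham replicate 1 it was 3, and without any 1 of the other 5 libraries it was 0. Of all genes, 435 were called with all libraries and 2199 without control replicate 1. The lowest number, without sham replicate 3, was 0.

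Krt26 and Krt27 reached the filter's minimum in enough control libraries of week 2 and of week 3, and the other 6 passed through sham skin. In control skin of week 3, 4 members were called lower than in sham skin (Krt26, Krt28, Krt72 and Krt74), against 6.19% of all genes, and 6 did not overlap, as for 13.5% of all genes. Since 6 of the 8 passed the filter through sham skin, both counts are a description. Krt26, which did not, was at 3.28 ± 4.65 CPM (SD, n = 4) against 411 ± 354 (n = 3; log2 fold change -7.04 ± 1.47 SE, edgeR adjusted p = 0.0222). Without control replicate 4, 8 members were called, and without sham replicate 2 or 3 or control replicate 1, 2 or 3 none was. Of all genes, 629 to 2438 were called when 1 library was left out, against 2036 with all libraries. In week 4 control skin, in which no library was high, had 8 of 8 members called lower, against 1.9% of all genes, and 8 without overlap, as for 9.64%. Of these, Krt27, Krt72, Krt73 and Krt74 passed the filter through sham skin, where they were high, so the count over 8 is a description. The other 4 reached its minimum in control skin as well. Krt71 was at 0.947 ± 0.479 CPM (SD, n = 4) against 3540 ± 2630 (n = 3; log2 fold change -11.90 ± 0.977 SE, adjusted p = 0.00734). Krt25 was at 0.586 ± 0.250 against 1250 ± 1010 CPM (-11.07 ± 0.993, adjusted p = 0.00734). Without control replicate 2, 3 or 4 of week 4 none was called, with adjusted p of up to 0.0742 for Krt71, while its log2 fold change stayed between -12.42 and -11.52. Of all genes, 655 were called with all libraries and 0 without control replicate 4. Leaving out 1 library at a time gave 0 to 1705.

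Libraries of the same group differed widely in these genes. Over the 35 libraries and 9 groups, the SD of log2 CPM within groups was 4.32 for Krt71, the largest of 19813 genes, and 3.94 for Krt25, which 1 gene exceeded. It was 3.44 for Krt73, 3.25 for Krt72, 3.06 for Krt27, 2.65 for Krt28, 2.02 for Krt26 and 1.48 for Krt74, which 273 genes exceeded. Hair shaft keratins were among the genes of widest spread too, with 3.30 for Krt81 and 3.21 for Krt86. The median of all genes was 0.39. The share of variance that lay between groups was 41.3% for Krt25 and 43.8% for Krt71, and reached 52.7% for Krt26, against a median of 49.6% over all genes. The keratins thus had about the usual share between groups with a larger total. In sham skin the highest library of Krt25 was 13.5 times the lowest (161 and 2160 CPM).

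**Figure D4:**
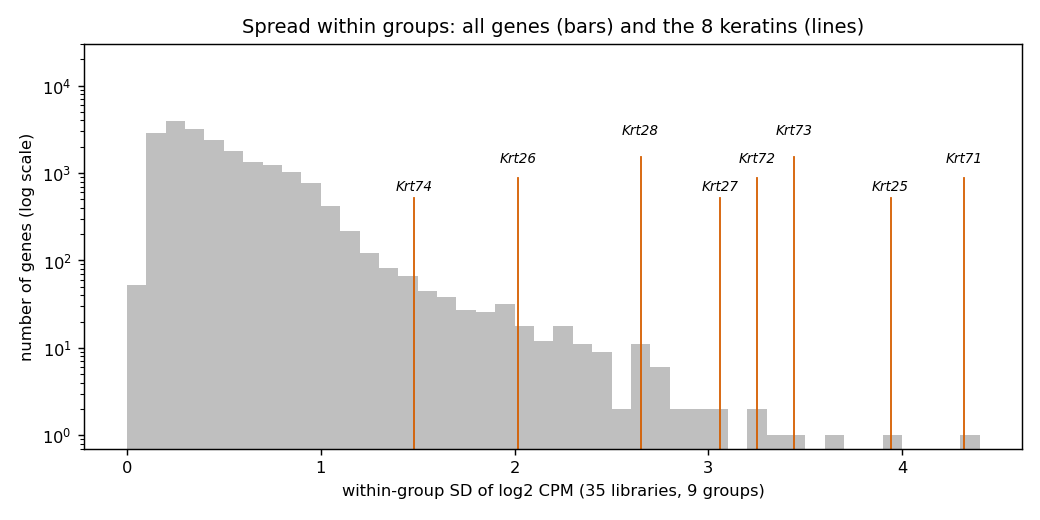
Histogram of the within-group SD of log2 CPM over 19813 genes (grey bars, number of genes on a log axis), with a line at each keratin. The bulk of genes lie near the median of 0.39, and the keratins run from 1.48 (Krt74) to 4.32 (Krt71) in the right tail.

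The keratins varied together over libraries, but not in fixed proportion. Across the 35 libraries Pearson's r of log2 CPM between members ran from 0.862 (Krt71 and Krt74) to 0.987 (Krt25 and Krt71) over 28 pairs, and Spearman's rho from 0.6 to 0.947. The libraries share groups, mice and the scaling, so this is a description. In the 13 libraries with more than 10 CPM of Krt71, Krt25 was at 31.8% to 70.3% of Krt71 per kb and Krt27 at 15.4% to 35.3%. Type I keratins made up 35.6% to 49.1% of the summed level per kb of all 8, and type II keratins were 1.03 to 1.81 times type I. The cuticle keratins varied more. Krt72 was at 25.3% and 16.0% of Krt71 in sham replicates 2 and 3 and 16.1% in control replicate 1 of week 1, but at 3.76% in sham replicate 1 and 1.93% in control replicate 1 of week 2. Krt26 was at 12.0% in sham replicate 2 and 1.23% in control replicate 1 of week 2. That library, at 742 CPM of Krt71, had the highest proportions of Krt73 (19.4%) and Krt28 (14.1%) beside these lowest ones. Counts behind these values there were 15621 for Krt71, 3006 for Krt73, 1642 for Krt28, 269 for Krt72 and 217 for Krt26. The same library had the highest Shh of all 35, at 45.9 CPM, a signal of the hair matrix named here after its values were seen, and the highest summed level of 6 proliferation genes, at 776 CPM. Whether these go together was not tested.

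**Figure D5:**
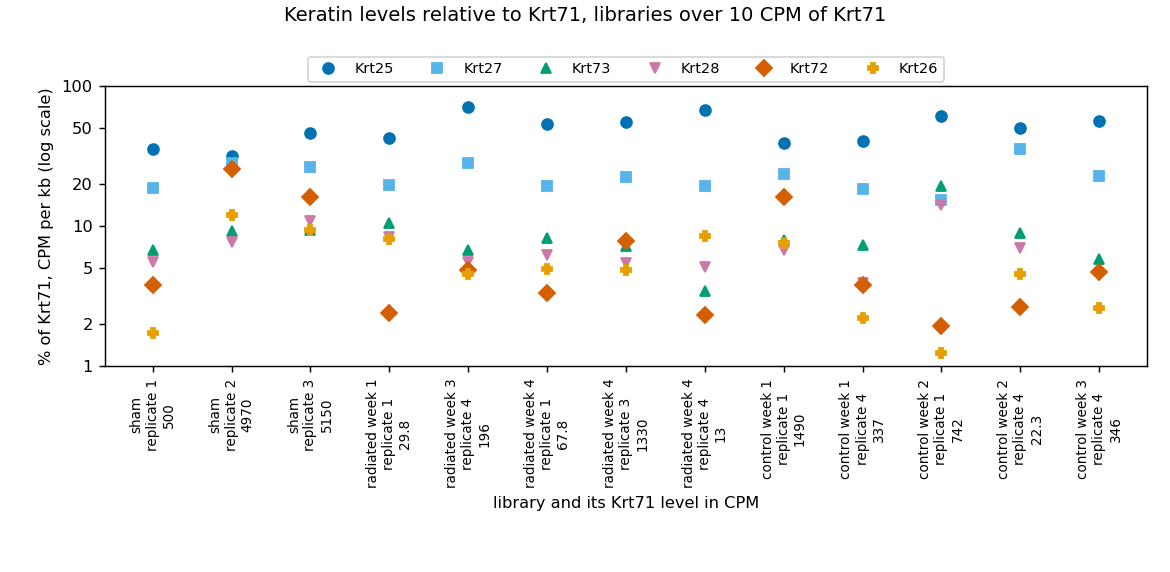
Level per kb of 6 keratins as a percentage of Krt71 (log axis) in the 13 libraries with over 10 CPM of Krt71, whose Krt71 level in CPM is under each name. Krt25 and Krt27 stay between 15.4% and 70.3%, while Krt72 (red-orange diamonds) runs from 1.93% to 25.3% and Krt26 (amber plus signs) from 1.23% to 12.0%.

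The genes most like the sheath keratins included trichohyalin and several hair shaft keratins. By the rule for named genes, the 10 genes outside the set with the highest Pearson r to the mean log2 CPM profile of the 8 over 35 libraries were Tchh, Krt81, Crnn, Krt33b, Krt33a, Gm49425, Lyg2, Krt86, Krt87 and S100a3. Their r ran from 0.985 for Tchh (Spearman's rho 0.865) to 0.959 for S100a3 (rho 0.749), and 71 genes outside the set had an r of at least 0.9. The median of all genes was 0.004. Tchh encodes trichohyalin, the protein of the granules that fill sheath cells, and Krt81, Krt33b, Krt33a, Krt86 and Krt87 encode keratins of the hair shaft. Tchh was at 15100 ± 12200 CPM in sham skin (SD, n = 3), 26.2 ± 5.30 in control skin of week 4 (n = 4) and 909 ± 1690 in radiated skin of week 4. The list medians of r were 0.945 for 14 hair shaft keratins, 0.741 for 8 genes of the hair matrix, 0.683 for 7 other sheath genes and 0.551 for 7 melanocyte genes. They were 0.475 for 6 proliferation genes, 0.417 for 6 dermal papilla genes and 0.288 for 4 companion layer and upper follicle keratins. For 6 bulge stem cell, 6 fibroblast, 6 interfollicular epidermis, 5 skeletal muscle and 5 adipocyte genes they were 0.097, 0.052, -0.062, -0.118 and -0.217.

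The list of 7 sheath genes other than keratins did not move as one in radiated against control skin of week 4. Of the 7, 5 were called higher, 1 lower (Gata3) and Cux1 was not called (adjusted p = 0.0515), where 24.2% of all genes were called higher and 8643 of 17850 in either direction, with a median log2 fold change of 2.52 against 0.02 over all genes. Tchh rose by a log2 fold change of 5.12 (edgeR adjusted p = 0.0209), but had a log2 fold change of 2.03 and an adjusted p of 0.223 with the mouse as a block. Padi3 and Padi1, named after their values were seen, encode enzymes that turn arginine into citrulline in trichohyalin and other proteins. Padi3 rose by 6.13 (adjusted p = 0.00647, blocked 0.0107) and Padi1 by 5.52 (adjusted p = 0.00878, blocked 0.0104). In control skin they were near the floor, at 0.0427 to 0.5 CPM for Padi3 and 0.0769 to 0.265 CPM for Padi1, and they passed the filter with the radiated libraries, where they were high. Tgm1 and Tgm3 (the latter named after its values were seen), transglutaminases that also serve the epidermis, rose by 0.73 and 2.52. Gata3, a transcription factor that the sheath needs and that is also made by the epidermis and by lymphocytes, fell from 1160 ± 102 to 149 ± 72.1 CPM (SD, n = 4 each; log2 fold change -2.95 ± 0.331 SE, edgeR adjusted p = 7.38e-05, blocked 0.000316). Its lowest control library, at 1060 CPM, was above its highest radiated library, at 211 CPM. Gata3 and the sheath keratins thus changed in opposite directions in that comparison, and the r of Gata3 with the keratin profile over 35 libraries was 0.192.

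Hair shaft keratins, the genes next most like these, shared most of the high libraries. Their summed level over 14 genes was 281, 2770 and 3650 CPM in sham replicates 1 to 3, 1070 CPM in control replicate 1 of week 1 and 409 CPM in radiated replicate 3 of week 4. In control replicate 1 of week 2, where the sheath keratins summed to 1480 CPM, the hair shaft keratins summed to 124 CPM. In radiated against control skin of week 4, 4 of the 14 passed the filter and 2 were called higher, Krt86 (log2 fold change 6.56, edgeR adjusted p = 0.0152, blocked 0.0116) and Krt35 (3.79, adjusted p = 0.0306, blocked 0.18), which was named after its values were seen. Of all genes, 24.2% were called higher there. Krt86 was at 0.0769 to 0.555 CPM in control skin and passed the filter through radiated skin, where it was high, so this count is a description. Of the 14, 14 were called lower than sham in radiated skin of weeks 1 and 2 and in control skin of week 4, against 1.21%, 2.9% and 1.9% of all genes. Several were near 0 outside sham skin (Krt33b at most at 0.0585 CPM in radiated skin of week 2) and passed the filter through sham skin, so this count is a description. The 8 hair matrix genes had 7 lower in radiated skin of week 2 and 6 lower in control skin of week 4 than in sham skin, among them Lef1 (12.2 ± 3.01 and 14.6 ± 2.01 CPM against 103 ± 87.8) and Dlx3 (35.5 ± 14.9 and 42.7 ± 4.24 against 245 ± 171). In radiated against control skin of week 4, 1 of the 8 was called, lower.

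Markers of other cell types moved in the same comparisons. The counts that follow are to be read against the shares over all genes: in radiated against control skin of week 4, 8643 of 17850 genes were called, so that a list with 1 or 2 genes called of 5 or 6 is near or below that background. In radiated against control skin of week 4, 6 of 6 fibroblast genes were called higher, with summed levels of 27900 to 47100 against 2210 to 4640 CPM. So were 5 of 6 proliferation genes (481 to 600 against 182 to 459 CPM) and 4 of the 6 melanocyte genes tested (28.9 to 52.8 against 15.4 to 17.9 CPM). Of 6 bulge stem cell genes 5 were called lower (296 to 787 against 4140 to 5300 CPM), as were 4 of 6 interfollicular epidermis genes (10900 to 15300 against 16300 to 18500 CPM), while Krt14 of that list rose from 1730 ± 248 to 7010 ± 572 CPM (SD, n = 4 each). Also lower were 4 of 5 skeletal muscle genes (879 to 2060 against 1130 to 17300 CPM). In that same comparison 2 of 6 dermal papilla genes were called higher and 2 lower, 2 of 4 companion layer and upper follicle keratins were higher, and 1 of 5 adipocyte genes was lower. With the mouse as a block, 1 of 5 skeletal muscle genes, 2 of 6 dermal papilla genes and 2 of 5 adipocyte genes were called there. Against sham skin, 319 of 18228 genes were called in radiated skin of week 1, 912 of 18036 in week 2 and 3308 of 18220 in week 3, and in control skin 435 of 17855 in week 2, 2036 of 17907 in week 3 and 655 of 17925 in week 4. In radiated skin of week 2, 4 of 6 proliferation genes, 2 of 6 bulge genes, 1 dermal papilla gene and 1 companion layer keratin were lower, 1 adipocyte gene was higher, and no fibroblast, epidermis, muscle or melanocyte gene was called. In control skin of week 4 against sham skin, 3 of 7 melanocyte genes (Tyr, Dct and Slc45a2) and the fibroblast gene Col1a1 were lower, Lor of the epidermis and Retn of adipocytes were higher, all named here after their values were seen, and no other marker of these cell types was called. In radiated skin of week 1 against sham skin, 2 of 6 proliferation genes and 1 companion layer keratin were lower (summed proliferation level 191 to 230 against 359 to 710 CPM), and no gene of the other cell type lists was called. In radiated skin of week 3 against sham skin, 3 of 6 bulge genes, 3 dermal papilla genes, 2 melanocyte genes, 1 muscle gene and 1 companion layer keratin were lower, and 2 of 6 fibroblast genes, 1 dermal papilla gene and 1 companion layer keratin were higher. In control skin of week 3 against sham skin, 4 of 6 proliferation genes (123 to 298 against 359 to 710 CPM), 2 bulge genes, 2 dermal papilla genes, 1 melanocyte gene and 1 companion layer keratin were lower. There 3 of 5 skeletal muscle genes (14400 to 29100 against 5820 to 12600 CPM) and 1 fibroblast gene were higher. In control skin of week 2 against sham skin, 4 of 5 skeletal muscle genes and 1 adipocyte gene were higher and 1 companion layer keratin was lower. None of these markers was at 0 in all libraries of a group. Their part in the keratin results was not tested.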

How the data were processed

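RNA from 35 skin biopsies was sequenced in bulk. The deposited table holds an estimated count per gene and library, made by the authors with kallisto per the labels, with kallisto 0.46.2, Trim Galore 0.6.7 and mm10 named in the submitters' processing notes. The transcriptome release is not given in the sources used here. Between 29.5% and 32.5% of values were not whole (tolerance 1e-06), and counts were rounded before testing. Library totals of 17362725 to 28487795 put the floor of 3 counts at 0.114 to 0.175 CPM, and such limits cover counting error only.

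Each pair of groups was fitted with edgeR 4.0.16 (R 4.3.3; quasi-likelihood F test, filterByExpr, TMM scaling, Benjamini-Hochberg adjustment over all genes tested, threshold 0.05) without a block. Log2 CPM used a prior count of 2. The SE printed with a log2 fold change was not fitted directly. It is the absolute log2 fold change divided by the square root of the F value of its test. The scripts were tested on simulated data. Alternatives were total-count scaling, DESeq2 size factors, the Wald test of DESeq2 1.42.0, no filter, 1 fit of all 35 libraries, a replicate block and leaving out each library. Transcript lengths came from GENCODE M21. Python 3.11.15 was used for sequences and figures.

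The members and gene lists were chosen with earlier results of these data known. Genes named beside the 8 members were the 10 with the highest r to their mean profile and up to 4 of each list with the highest mean CPM; other genes were named after their values were seen, as the text says at each. Nothing in the labels says that replicates of a group were processed separately, so p-values measure the spread between these samples. No 2 of the 595 library pairs were identical, and all 51 pairs within groups differed by more than sampling noise. The pairing of radiated and control libraries by week and number was inferred from 19 mice for 35 libraries. Same-numbered libraries had mean correlations of their deviations from the group means of 0.07, 0.17, 0.05 and -0.02 in weeks 1 to 4, against -0.02, -0.06, -0.02 and 0.01 for other numbers.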

Additional observations from a re-analysis of the deposited data

Results flagged for a closer look

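In 7 of 64 groups of 4 libraries tested on the log2 scale, 1 library stood apart from the others by Dixon's criterion (a gap share above 0.829), where chance gives about 1 in 20 for independent groups. The 64 are not independent, since the 8 genes were read in the same libraries and varied together. Krt27 was highest at 4.14 CPM in radiated replicate 1 of week 1. Replicate 4 of week 3 was highest for Krt28 (11.4 CPM), Krt72 (14.6 CPM) and Krt73 (20.0 CPM) in control skin and for Krt72 in radiated skin (8.47 CPM). For Krt72 and Krt73 the other 3 control libraries of week 3 had 0 counts, which fixes the gap share at 1. Krt74 was lowest, at 0 CPM, in radiated replicate 3 of week 2 and in control replicate 4 of week 4, where all libraries were at or under 3 counts.

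The difference between radiated and control skin varied over weeks 1 to 4 by edgeR's interaction test for 7 of 8 members, against 15.6% of all genes (3013 of 19338). It did so for none of the 8 when any 1 replicate number was left out, where 960 to 1782 of all genes were called. The adjusted p was 0.0307 for Krt25, 0.0289 for Krt26, 0.0240 for Krt27, 0.0448 for Krt28, 0.0401 for Krt71, 0.0296 for Krt72 and 0.0254 for Krt73. With the mouse as a block, 4 of these were called.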

How the results depend on the processing

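Total-count scaling and DESeq2 size factors left all 14 counts of members called within 1.5 times, although total-count scaling moved log2 fold changes over all genes, at the median, by up to 0.235 (radiated against control, week 3) and -0.175 (control against sham, week 2). It also moved the number of genes called lower in control against sham skin. That number went from 295 to 469 in week 1, from 190 to 322 in week 2 and from 1109 to 1951 in week 3. With a replicate block (the mouse for radiated against control and the interaction, the number alone against sham), the members called were 3 for radiated against control in week 4 and 4 for the interaction. Against sham skin the block gave 0 and 8 for radiated skin of weeks 1 and 3, and 0 and 5 for control skin of weeks 2 and 4, where libraries share only a number. No such fit exists for the test of 9 groups. DESeq2 called 1 member in radiated skin of week 4 against sham and 2 in control skin of week 2, the fit of all 35 libraries 2 and 3 there, and no filter 2 in control skin of week 2. DESeq2 gave no adjusted p to 8 members in radiated against control skin of week 4, so it has no count there.

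Leaving out 1 library gave 3 to 6 members called for radiated against control in week 4. For radiated against sham it gave 0 to 8, 6 to 8, 0 to 8 and 0 to 8 in weeks 1 to 4, and for control against sham 0 to 3, 0 to 8, 0 to 8 and 0 to 8. The interaction had 0 without any 1 replicate number, against 960 to 1782 of all genes. Log2 fold changes of radiated against control that turned sign ran in week 2 from -1.58 to 0.27 for Krt26 and -5.84 to 0.07 for Krt28. In week 3 they ran from -6.74 to 5.74 for Krt25, -1.51 to 1.81 for Krt26, -6.06 to 3.70 for Krt27 and -6.88 to 7.09 for Krt71, which was 0.04 with the block. The cause was not tested, apart from the smaller number of samples.

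Counts over all genes moved more widely. Leaving out 1 library gave 0 to 232, 0 to 206, 3209 to 5071 and 7548 to 8582 genes for radiated against control in weeks 1 to 4. For radiated against sham it gave 1 to 543, 107 to 1398, 1134 to 3965 and 3467 to 4590. For control against sham it gave 0 to 1803, 0 to 2199, 629 to 2438 and 0 to 1705. For radiated against control, DESeq2 called 424 and 710 genes in weeks 1 and 2 against 0 and 1 by edgeR, the fit of all 35 libraries 23 and 544, no filter 2 in week 2, and the block 641 in week 2. For radiated against sham, edgeR called 319, 912, 3308 and 4899 genes in weeks 1 to 4, DESeq2 1210 and 2439 in weeks 1 and 2, the fit of all libraries 1224, 3257 and 6402 in weeks 1 to 3, no filter 561 in week 1, and the block 126, 497 and 3160 in weeks 1, 2 and 4. For control against sham, edgeR called 881, 435, 2036 and 655, DESeq2 2878, 1901, 3453 and 1818, the fit of all libraries 1559 and no filter 734 in week 2, and the block 0, 1, 477 and 97. Levels at or under 3 counts were not told apart from 0, which limits Krt72, Krt73 and Krt74 most.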
